A study of Mus musculus with 8 samples.

Results

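The genes described are 10 purinergic receptors and ectonucleotidases, taken by their symbols with no threshold on a measured value, out of 55487 genes in the mouse count table. They are the ATP-gated channels P2rx4 and P2rx7, the nucleotide receptors P2ry2, P2ry6, P2ry13 and P2ry14, the adenosine receptors Adora2a and Adora2b, and the ectonucleotidases Entpd1 and Nt5e. Each symbol matched 1 identifier, and all 10 genes passed the filter on low counts.

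The genes were measured by mRNA sequencing in bone marrow-derived dendritic cells (BMDC), which are grown from mouse marrow progenitors with the growth factor GM-CSF. All 8 libraries came from WT cells of female C57BL/6J mice, aged 6 to 8 weeks, cultured for 10 days with 20 ng/ml GM-CSF. In the 4 control libraries (BMDC) the cells were untreated. In the other 4 (BMDC-fer) the BMDC were stained with CellTraceViolet and co-cultured for 4 h with ferroptotic Jurkat cells, and the BMDC that had engulfed them were isolated by sorting. The Jurkat cells, a human line from a T-cell leukemia, had been exposed to 0.5 µM ML162, an inhibitor of GPX4 that triggers ferroptosis, for 14 h. The controls are described only as untreated, and whether they were stained or sorted is not given in the sources used here, so co-culture and engulfment cannot be told apart from each other or from sorting. The samples of a group are described as independently collected, but the labels tie no sample to a mouse, and the p-values measure only the spread between these samples.

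Dying cells release ATP, UTP, UDP and other nucleotides, which phagocytes sense through ion channels of the P2X family and G protein-coupled receptors of the P2Y family. Entpd1 (CD39) removes phosphates from extracellular ATP and ADP, and Nt5e (CD73) turns the resulting AMP into adenosine. Adenosine acts on the receptors encoded by Adora2a and Adora2b, both of which raise cAMP and restrain the activity of dendritic cells.

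Total counts were between 39326672 and 50532209 per library, and a floor of 3 counts corresponded to between 0.0607 and 0.0785 CPM (counts relative to the effective library size), which covers counting error only. Replicates 1 and 2 were unlike replicates 3 and 4 in BMDC and in BMDC-fer, a split that the labels do not explain, so values within each replicate pair are given beside the pooled ones for the 10 genes and for the called genes of the further lists. Of the dendritic cell markers, Itgax stood between 787 and 1407 CPM in BMDC and between 748 and 1317 CPM in BMDC-fer. The summed level of 8 dendritic cell markers was 6523 to 14913 CPM in BMDC and 3056 to 7238 CPM in BMDC-fer, with none at 0 and 2 of 8, Flt3 and Ccr7, called lower, beside 7 of 8 in the fit with a replicate block and 4 of 8 with DESeq2. All 8 estimates for these dendritic cell markers were below 0, with a median log2 fold change of -2.01. The summed level of 7 macrophage markers was 2431 to 3302 CPM in BMDC and 2857 to 4444 CPM in BMDC-fer, with 1 of 7 called, Adgre1, lower. The other 6 macrophage markers had estimates above 0 and were not called, and the median log2 fold change of the 7 was 0.49. The 8 neutrophil markers summed to 39.8 to 209.8 CPM in BMDC and 13.4 to 39.5 CPM in BMDC-fer, with 5 called lower, and 8 with the block or DESeq2. Of all tested genes 5.91% were called lower by edgeR, while 13% with the block and 13.3% with DESeq2 were called in either direction. Of 11 T-cell markers (the lineage of Jurkat) Bcl11b, Rag1 and Dntt were at 0 in all 8 libraries, and the sum was 17.95 to 24.2 CPM in BMDC and 22.5 to 26.9 CPM in BMDC-fer, most of it Tal1. The part of these markers in the results below was not tested, and in bulk samples fewer cells of a type and less RNA per cell cannot be told apart.

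Calls required an adjusted p no higher than 0.05 (edgeR's quasi-likelihood test, Benjamini-Hochberg over all 15411 tested genes) together with a log2 fold change of at least 0.58 in either direction. Over all libraries 2 of the 10 genes were called between BMDC-fer and BMDC, P2rx7 as higher and Adora2a as lower, where 9.38% of all tested genes were called. In the higher direction 1 of 10 was called against 3.47% of tested genes, and in the lower direction 1 of 10 against 5.91%. At any fold change, 3 of the 10 passed the adjusted p (P2rx7, P2ry14 and Adora2a), beside 12% of tested genes. Of the 10 estimates, 8 were above 0 and 2 below, with a median log2 fold change of 0.56 beside 0.00069 over all tested genes. The libraries of the groups did not overlap for 5 of the 10 genes, 4 of them higher and 1 lower in BMDC-fer, and 22.9% of all tested genes did not overlap. The summed level of the 10 genes was 541 to 614 CPM in BMDC and 728 to 799 CPM in BMDC-fer.

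**Figure D1:**
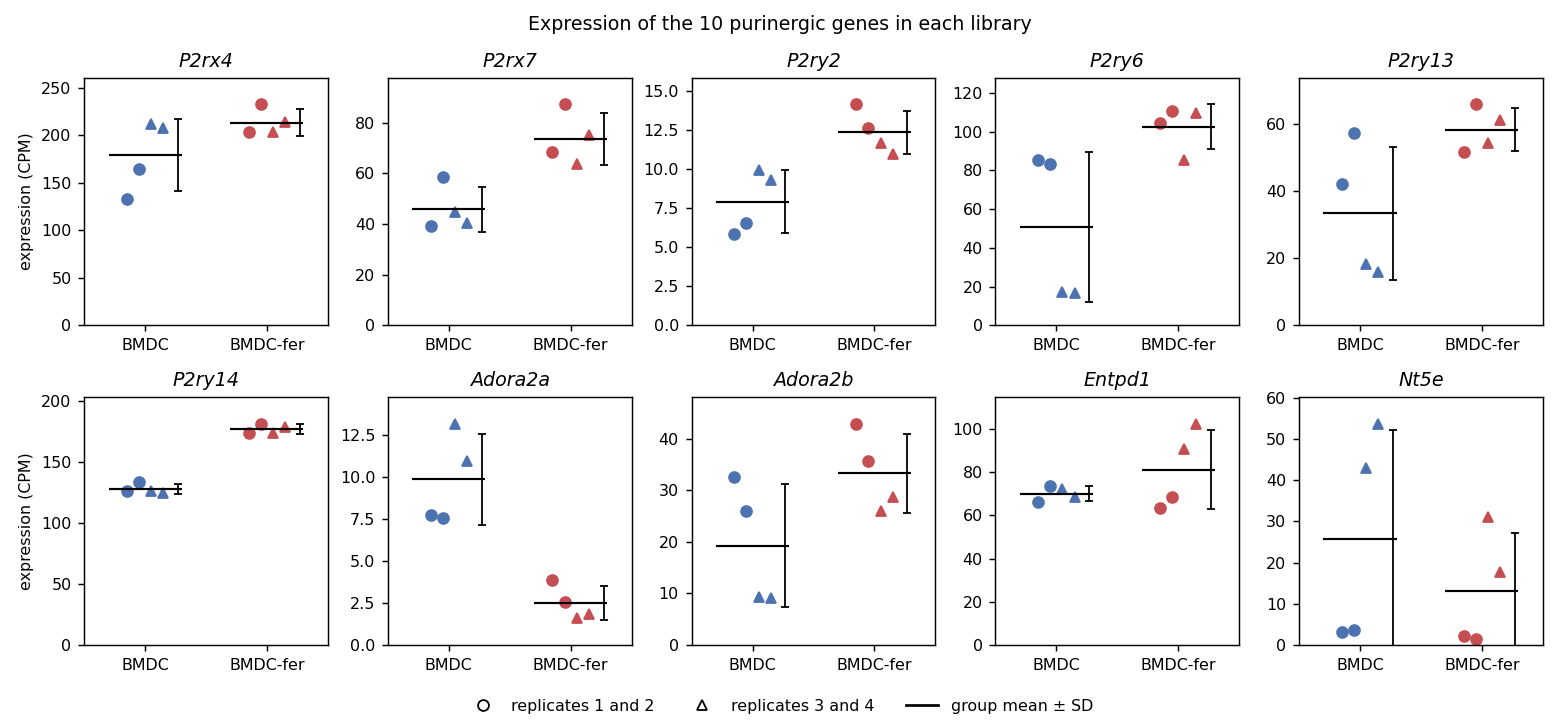
Normalised read counts (CPM, vertical axis from 0) of the 10 genes in each library of BMDC (blue) and BMDC-fer (red). Circles are replicates 1 and 2, triangles are replicates 3 and 4, lines are group means and bars SDs, of which those of Nt5e run below 0 and end at the axis. P2rx7, P2ry2, P2ry6 and P2ry14 sit higher in all BMDC-fer libraries and Adora2a lower, while in BMDC the replicate pairs lie apart for P2ry6, P2ry13, Adora2b and Nt5e.

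Among the ATP-gated channels, P2rx7 rose and P2rx4 was not called. P2rx7 (ENSMUSG00000029468, chr5:122643911-122691432, plus strand, GRCm38) encodes the channel that opens at high extracellular ATP and sets off NLRP3 inflammasome activation. Its level was 39.3, 58.5, 44.8 and 40.4 CPM in BMDC replicates 1 to 4 and 68.4, 87.2, 63.5 and 75.1 CPM in BMDC-fer replicates 1 to 4. All 4 BMDC-fer libraries lay above all 4 BMDC libraries, with the nearest values 58.5 and 63.5 CPM, and replicate 2 was the highest of both groups. The means were 45.7 ± 8.84 and 73.6 ± 10.3 CPM (SD, n = 4), a 1.61-fold rise (log2 fold change 0.69, SE 0.16, 95% confidence interval 0.33 to 1.04, adjusted p = 0.0282). The exact permutation test gave p = 0.0286, two-sided, the smallest that 4 against 4 libraries allow. The rise was alike in both replicate pairs, with a log2 fold change of 0.67 in replicates 1 and 2, against 0.70 in replicates 3 and 4, and their difference did not pass (interaction adjusted p = 0.930). The call was lost in 6 of the 8 fits that left out a library (BMDC 1, 3 or 4, or BMDC-fer 1, 2 or 4), where the log2 fold change was 0.59 to 0.73 and the adjusted p 0.0544 to 0.0831.

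P2rx4 (ENSMUSG00000029470, chr5:122707544-122729738, plus strand) lies next to P2rx7 and encodes an ATP-gated channel found on lysosomes and at the cell surface. It read 133, 164, 212 and 207 CPM in BMDC and 203, 233, 204 and 214 CPM in BMDC-fer. The groups overlapped, since BMDC replicates 3 and 4 stood at the level of BMDC-fer and only replicates 1 and 2 stood below it. The means were 179 ± 37.4 and 213 ± 13.7 CPM, with a log2 fold change of 0.25 (SE 0.16, 95% confidence interval -0.10 to 0.60, adjusted p = 0.308). Within replicates 1 and 2 the log2 fold change was 0.55 (adjusted p = 0.00410), and within replicates 3 and 4 it was -0.0071 (adjusted p = 0.962), a difference that passed the test (interaction adjusted p = 0.0197). Of the words of 50 bases in the longest P2rx4 transcript, 2.16% also occur in transcripts of other genes. This is a share of sequence and not of reads, and the effect on its counts was not measured. For P2rx7 the share was 1.44%, all in Mir8115, which lies in the same locus.

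The P2Y receptors gave 3 patterns, an even rise (P2ry14), a difference larger in replicates 3 and 4 (P2ry6 and P2ry13), and a difference larger in replicates 1 and 2 (P2ry2). P2ry14 (ENSMUSG00000036381, chr3:59113855-59153618, minus strand) encodes a receptor for UDP-glucose, a sugar nucleotide released by damaged cells. It read 126, 134, 126 and 125 CPM in BMDC and 174, 181, 174 and 179 CPM in BMDC-fer. The groups did not overlap and the spread within each was small, with means of 128 ± 4.11 and 177 ± 3.78 CPM (SD, n = 4). This 1.39-fold difference (log2 fold change 0.47, SE 0.08, 95% confidence interval 0.29 to 0.65) passed the adjusted p threshold (adjusted p = 0.0108) but stayed under the fold change threshold, so P2ry14 was not called. The log2 fold change was 0.45 in replicates 1 and 2, against 0.49 in replicates 3 and 4 (interaction adjusted p = 0.777). Over 16 alternatives it lay between 0.45 and 0.50, with an adjusted p of at most 0.0456, below the fold threshold in each.

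P2ry6 (ENSMUSG00000048779, chr7:100937630-100974649, minus strand) encodes the receptor for UDP, which in microglia promotes phagocytosis. It read 85.1, 83.0, 17.3 and 16.9 CPM in BMDC and 105, 111, 85.5 and 109 CPM in BMDC-fer. BMDC replicates 3 and 4 were far below the other 6 libraries, and the groups were separated by no more than 85.1 against 85.5 CPM. In BMDC the mean of replicates 1 and 2 was 4.92 times that of replicates 3 and 4 (84.1 and 17.1 CPM), while in BMDC-fer the same ratio was 1.10. Over all libraries the log2 fold change was 1.02 (SE 0.53, 95% confidence interval -0.20 to 2.23, adjusted p = 0.235), so P2ry6 was not called, while a covariate for the replicate pair turned the call (log2 fold change 1.42, adjusted p = 0.0309). Within replicates 3 and 4 it was called higher, by 2.51 on the log2 scale (adjusted p = 2.76e-06), and within replicates 1 and 2 the log2 fold change was 0.36 (adjusted p = 0.0280), under the fold threshold. This difference between the pairs passed the test (interaction adjusted p = 6.57e-05).

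P2ry13 (ENSMUSG00000036362, chr3:59207892-59210882, minus strand) encodes a receptor for ADP. It read 42.1, 57.1, 18.1 and 15.9 CPM in BMDC and 51.6, 65.8, 54.4 and 61.0 CPM in BMDC-fer. The groups overlapped, because BMDC replicate 2 lay above the lower BMDC-fer libraries, and BMDC replicates 3 and 4 were again the lowest. The log2 fold change was 0.80 over all libraries (SE 0.38, 95% confidence interval -0.06 to 1.67, adjusted p = 0.194), which was not called, and 0.99 with the pair covariate (adjusted p = 0.0373), which was. It was 1.76 within replicates 3 and 4 (adjusted p = 5.46e-05) and 0.24 within replicates 1 and 2 (adjusted p = 0.260), with an interaction adjusted p of 0.00136. P2ry13 and P2ry14 both lie inside Med12l, which runs on the opposite strand and shares 0 exon bases with either. Whether the counting used strand is not given in the sources used here. Med12l was at 4.06, 4.61, 5.32 and 4.96 CPM in BMDC and at 1.96, 1.37, 2.18 and 1.86 CPM in BMDC-fer, and it fell (log2 fold change -1.36, adjusted p = 0.00746).

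P2ry2 (ENSMUSG00000032860, chr7:100996568-101012866, minus strand) encodes the receptor for ATP and UTP through which phagocytes migrate towards dying cells. It was among the 3 lowest of the 10 genes per length and read 5.83, 6.57, 9.94 and 9.33 CPM in BMDC and 14.2, 12.6, 11.7 and 11.0 CPM in BMDC-fer. The groups did not overlap, with means of 7.92 ± 2.02 and 12.4 ± 1.37 CPM (SD, n = 4; exact permutation p = 0.0286). The 1.57-fold difference (log2 fold change 0.65, SE 0.20, 95% confidence interval 0.19 to 1.10) did not reach the threshold (adjusted p = 0.0703), while DESeq2 (log2 fold change 0.65, adjusted p = 0.0242) and the pair covariate (0.67, adjusted p = 0.0281) called it. The adjusted p ran from 0.00032 to 0.142 over 16 alternatives. Within replicates 1 and 2 P2ry2 was called higher (log2 fold change 1.11, adjusted p = 0.00032), and within replicates 3 and 4 the log2 fold change was 0.24 (adjusted p = 0.142), a pattern opposite in order to that of P2ry6 and P2ry13 (interaction adjusted p = 0.00519).

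**Figure D2:**
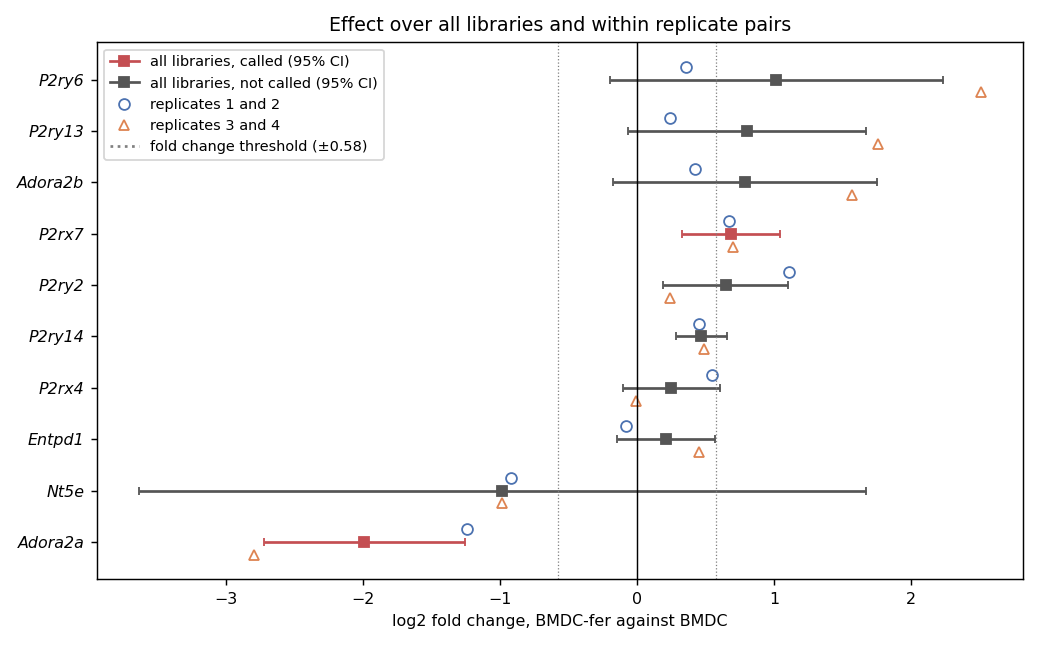
Log2 fold change of each gene between BMDC-fer and BMDC (horizontal axis), over all libraries (squares with 95% confidence intervals, red where called), within replicates 1 and 2 (circles) and within replicates 3 and 4 (triangles). Dotted lines mark the fold change threshold of 0.58. The pair values nearly coincide for P2rx7, P2ry14 and Nt5e and lie far apart for P2ry6, P2ry13 and Adora2a.

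The genome sequence before a transcript start is shown for 5 of these genes, 3 whose difference was alike in both replicate pairs (P2rx7, P2ry14 and Nt5e, the last described below) and 2 whose difference was larger in replicates 3 and 4 (P2ry13 and Adora2b). Each is the window of 250 bases before a RefSeq transcript start (GRCm38.p6), written 5′ to 3′ on the gene's strand, with the letters of the AP-1 motif TGANTCA in capitals. The windows are chr5:122643677-122643926 (plus strand), chr3:59153493-59153742 (minus), chr9:88327359-88327608 (plus), chr3:59210883-59211132 (minus) and chr11:62248734-62248983 (plus). The Nt5e window lies inside the span of the gene given below, and those of P2rx7 and P2ry14 overlap the spans given above.
P2rx7: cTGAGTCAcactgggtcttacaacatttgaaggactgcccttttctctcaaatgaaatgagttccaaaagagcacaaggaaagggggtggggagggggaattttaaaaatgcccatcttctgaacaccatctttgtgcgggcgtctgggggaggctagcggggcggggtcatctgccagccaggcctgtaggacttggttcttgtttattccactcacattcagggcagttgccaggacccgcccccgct
P2ry14: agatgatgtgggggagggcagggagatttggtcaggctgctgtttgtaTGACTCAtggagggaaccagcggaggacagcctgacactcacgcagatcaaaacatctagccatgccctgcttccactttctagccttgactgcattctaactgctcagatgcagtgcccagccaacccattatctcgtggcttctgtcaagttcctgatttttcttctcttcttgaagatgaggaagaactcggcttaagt
Nt5e: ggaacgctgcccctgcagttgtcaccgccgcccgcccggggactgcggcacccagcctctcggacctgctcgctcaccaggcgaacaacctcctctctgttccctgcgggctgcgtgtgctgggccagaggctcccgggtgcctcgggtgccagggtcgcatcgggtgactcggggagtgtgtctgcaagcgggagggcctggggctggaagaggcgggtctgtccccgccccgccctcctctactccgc
P2ry13: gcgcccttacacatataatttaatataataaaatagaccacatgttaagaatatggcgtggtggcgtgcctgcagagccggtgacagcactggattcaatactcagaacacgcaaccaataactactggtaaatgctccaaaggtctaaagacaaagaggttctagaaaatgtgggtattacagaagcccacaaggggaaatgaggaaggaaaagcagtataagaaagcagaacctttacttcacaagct
Adora2b: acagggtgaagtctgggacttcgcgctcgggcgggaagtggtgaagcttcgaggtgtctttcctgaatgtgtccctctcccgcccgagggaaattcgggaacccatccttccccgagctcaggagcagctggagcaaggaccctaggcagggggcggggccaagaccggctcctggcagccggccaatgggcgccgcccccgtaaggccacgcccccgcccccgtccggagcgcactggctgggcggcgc
Windows were found for 8 of the 10 genes, and those of P2rx4, P2ry2 and Entpd1 are not shown. None was found for P2ry6 or Adora2a, so these genes were not searched. Both strands were searched for the ETS motif GAGGAAGT, TGANTCA, the cAMP response element TGACGTCA, the hypoxia response core ACGTG, an interferon response core and the C/EBP palindrome TTGCGCAA. TGANTCA occurred in P2rx7 at the distal end of the window, 249 bases before the start, and in P2ry14 at 202 bases before the start shown and at 144 bases before another start, and 6.75% of 32851 mouse windows of this length hold it. It did not occur in the other windows of P2rx7 and P2ry14, or in any window of Nt5e, P2ry13, Adora2b, P2rx4, P2ry2 or Entpd1. The share is per window, and a gene with several windows has more places for a match. ACGTG occurred on both strands of 1 site in a window of P2ry2, and 16.6% of windows hold it, and the other motifs had no match in the windows of these genes. A match is a description of letters, and whether a factor binds there was not measured.

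Of the adenosine receptors, Adora2a fell and Adora2b was not called. Adora2a (ENSMUSG00000020178, chr10:75316877-75334784, plus strand), the high-affinity receptor that raises cAMP, read 7.72, 7.54, 13.2 and 10.95 CPM in BMDC and 3.84, 2.57, 1.61 and 1.86 CPM in BMDC-fer. These values rest on 335, 358, 556 and 439 counts in BMDC and on 190, 105, 67 and 71 counts in BMDC-fer. The groups did not overlap, the lowest control being 7.54 and the highest BMDC-fer library 3.84 CPM. Adora2a fell 3.97-fold, from 9.84 ± 2.71 to 2.47 ± 1.00 CPM (SD, n = 4; log2 fold change -1.99, SE 0.32, 95% confidence interval -2.72 to -1.26, adjusted p = 0.00880). The fall was called in all 16 alternatives, with an adjusted p of at most 0.0369, and the exact permutation p was 0.0286. Its size differed between the pairs, with a log2 fold change of -1.24 in replicates 1 and 2, against -2.80 in replicates 3 and 4 (interaction adjusted p = 0.00378). In replicates 3 and 4 the BMDC level was higher and the BMDC-fer level lower than in replicates 1 and 2.

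Adora2b (ENSMUSG00000018500, chr11:62248984-62266453, plus strand), the receptor that needs more adenosine, read 32.5, 26.0, 9.37 and 9.0 CPM in BMDC and 42.9, 35.7, 25.9 and 28.6 CPM in BMDC-fer. BMDC replicates 3 and 4 were the lowest of all libraries, and BMDC replicates 1 and 2 overlapped with BMDC-fer replicates 3 and 4. The log2 fold change was 0.79 (SE 0.42, 95% confidence interval -0.17 to 1.75, adjusted p = 0.244), so Adora2b was not called, while the pair covariate turned the call (log2 fold change 0.99, adjusted p = 0.0143). Within replicates 3 and 4 it was called higher (log2 fold change 1.57, adjusted p = 3.81e-05), and within replicates 1 and 2 the log2 fold change was 0.43 (adjusted p = 0.0302), under the fold threshold. The interaction had an adjusted p of 0.00207. In BMDC, the level in replicates 1 and 2 was 3.19 times that in replicates 3 and 4 for Adora2b and 2.91 times for P2ry13, beside the 4.92 times of P2ry6. The summed dendritic cell markers were also higher in BMDC replicates 1 and 2 (14913 and 10052 CPM) than in 3 and 4 (6883 and 6523 CPM), a sum made up mostly of Cd74 and H2-Ab1. Besides these, Ciita was higher in BMDC replicates 1 and 2 (326 and 242 against 34.6 and 33.1 CPM). So were Zbtb46 (42.7 and 23.3 against 7.21 and 6.29 CPM) and Cd209a (33.7 and 12.1 against 1.66 and 1.02 CPM). Among the same markers Itgax (943 and 787 against 1305 and 1407 CPM) and Ccr7 (98.8 and 110.5 against 155 and 167 CPM) were lower in replicates 1 and 2, and Flt3 overlapped. The part of the markers in the difference between pairs was not tested.

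Compared per kilobase of exon (RPKM), the ratio of Adora2b to Adora2a was 6.99, 5.73, 1.18 and 1.36 in BMDC and 18.5, 23.0, 26.8 and 25.5 in BMDC-fer. Adora2b was thus the higher of the pair in every library, and the ratio was higher in every BMDC-fer library than in any BMDC library, with medians of 24.3 and 3.55. This ratio was chosen after the values were seen, and no test is given for it. By the root mean square difference of centred log2 CPM over the 8 libraries, the tested genes most like Adora2a were H2-Q6 (0.217), 4930523C07Rik (0.223) and Dusp5 (0.230), where the median over all tested genes was 1.15. H2-Q6 belongs to a family of near-identical class I genes, so its counts are uncertain.

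**Figure D3:**
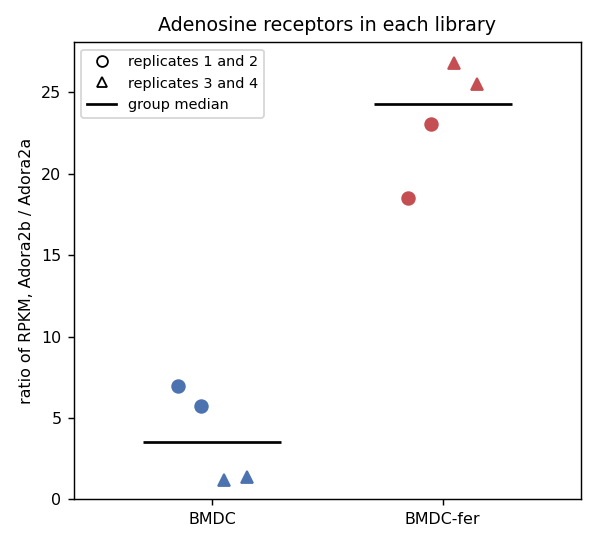
Ratio of Adora2b to Adora2a per kilobase of exon (vertical axis, from 0) in each library of BMDC and BMDC-fer. Circles are replicates 1 and 2, triangles replicates 3 and 4, and lines group medians, which are 3.55 in BMDC and 24.3 in BMDC-fer.

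Of the ectonucleotidases, neither was called over all libraries. Entpd1 (ENSMUSG00000048120, chr19:40612366-40741602, plus strand) read 66.1, 73.4, 72.3 and 68.5 CPM in BMDC and 63.3, 68.4, 90.8 and 102 CPM in BMDC-fer. BMDC-fer replicates 3 and 4 were above all controls, while replicates 1 and 2 were within or below the range of the controls. The log2 fold change was 0.21 (SE 0.16, 95% confidence interval -0.15 to 0.57, adjusted p = 0.395). The value was -0.08 in replicates 1 and 2 (adjusted p = 0.495) and 0.46 in replicates 3 and 4 (adjusted p = 0.00278), with an interaction adjusted p of 0.0103. Pseudogenes lie inside the Entpd1 locus on the same strand and share 0 exon bases with it.

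Nt5e (ENSMUSG00000032420, chr9:88327197-88372092, plus strand) varied most between the replicate pairs. It read 3.09, 3.54, 43.0 and 53.8 CPM in BMDC and 2.04, 1.42, 31.2 and 17.7 CPM in BMDC-fer. Replicates 3 and 4 stood above replicates 1 and 2 in both groups, by 14.6 times in BMDC and 14.1 times in BMDC-fer, so the groups overlapped. At each replicate number the BMDC-fer library was below the BMDC library of the same number. Without regard to the replicate number the log2 fold change was -0.98 (SE 1.17, 95% confidence interval -3.64 to 1.67, adjusted p = 0.602). With the replicate number as a block, Nt5e was called lower (log2 fold change -0.99, adjusted p = 0.0367), and the adjusted p over 16 alternatives ran from 0.00854 to 0.887. Within the pairs it fell by 0.92 on the log2 scale in replicates 1 and 2 (adjusted p = 0.0444) and by 0.98 in replicates 3 and 4 (adjusted p = 0.00854), and the interaction did not pass (adjusted p = 0.919). Entpd1 exceeded Nt5e per kilobase in every library, with a ratio of 1.97 to 33.0 in BMDC and 4.49 to 74.3 in BMDC-fer.

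**Figure D4:**
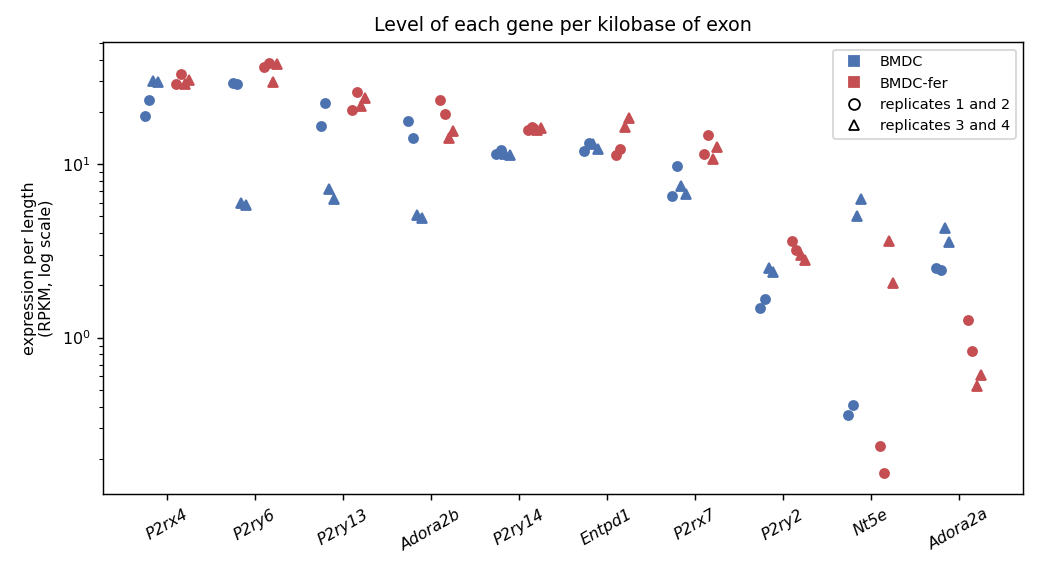
Level of each gene per kilobase of exon (RPKM, logarithmic vertical axis) in each library of BMDC (blue) and BMDC-fer (red), with circles for replicates 1 and 2 and triangles for replicates 3 and 4. P2ry2, Nt5e and Adora2a are the lowest genes by mean level, and the Nt5e points of replicates 1 and 2 lie far below those of replicates 3 and 4.

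In BMDC the order of the levels per kilobase was P2rx4 (25.5 ± 5.32 RPKM, SD, n = 4), P2ry6 (17.5 ± 13.4), P2ry13 (13.2 ± 7.83), Entpd1 (12.6 ± 0.606), P2ry14 (11.5 ± 0.372), Adora2b (10.4 ± 6.45), P2rx7 (7.66 ± 1.48), Adora2a (3.21 ± 0.884), Nt5e (3.00 ± 3.07) and P2ry2 (2.02 ± 0.514 RPKM). In this order the libraries of P2rx7 and Adora2a did not overlap, and those of every other pair of neighbours did. In BMDC-fer the order was P2ry6 (35.5 ± 4.02 RPKM), P2rx4 (30.4 ± 1.95), P2ry13 (23.0 ± 2.53), Adora2b (18.0 ± 4.13), P2ry14 (16.0 ± 0.342), Entpd1 (14.6 ± 3.31), P2rx7 (12.3 ± 1.72), P2ry2 (3.15 ± 0.348), Nt5e (1.52 ± 1.65) and Adora2a (0.807 ± 0.328 RPKM). Here P2rx4 and P2ry13 did not overlap, nor did P2rx7 and P2ry2, while the other neighbours did. These orders rest on group means that pool unlike replicate pairs. P2ry6 stood above P2rx4 in BMDC replicates 1 and 2 (29.5 against 19.0 and 28.8 against 23.4 RPKM) and far below it in BMDC replicates 3 and 4 (6.0 against 30.2 and 5.84 against 29.5 RPKM), and it was the higher of the pair in all BMDC-fer libraries. Adora2a was the lowest of the 10 genes in BMDC-fer replicates 3 and 4, while in replicates 1 and 2 Nt5e was lower (0.238 and 0.165 RPKM, against 1.26 and 0.839 RPKM for Adora2a).

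Of the 10 genes, 8 had the same sign in both replicate pairs, and for 7 of 10 the effect differed between the pairs (interaction adjusted p of 0.05 or less, which 37.8% of all tested genes reached). P2rx7, P2ry14 and Nt5e were the 3 for which it did not. Within replicates 1 and 2, 4 of 10 were called (P2rx7 and P2ry2 higher, Adora2a and Nt5e lower), beside 22.3% of tested genes. Within replicates 3 and 4, 6 of 10 were called (P2rx7, P2ry6, P2ry13 and Adora2b higher, Adora2a and Nt5e lower), beside 33% of tested genes. With a covariate for the replicate pair 7 of 10 were called (P2rx7, P2ry2, P2ry6, P2ry13 and Adora2b higher, Adora2a and Nt5e lower), beside 18.3% of tested genes, and 3 of 10 were called when the replicate number was a block (P2rx7, Adora2a and Nt5e), beside 13%. DESeq2 called 3 of 10 (P2rx7, P2ry2 and Adora2a), beside 13.3% of the genes it tested. The within-pair tests take the spread from pairs of 2 libraries, pooled over the 4 sets.

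The further genes of the pathway were taken from lists whose makeup was chosen with earlier results of these data known. Their counts stand beside 3.47% of all tested genes called higher and 5.91% called lower by edgeR. DESeq2 called 13.3% of the genes it tested, in either direction. For an unadjusted p under 0.05 the share of all tested genes is not given. Of 13 other genes listed as purinergic receptors 9 were tested, 1 was called higher and 1 lower, and Adora1 was at 0 counts in all libraries. Not every gene of this list encodes a nucleotide or adenosine receptor, and P2ry10, the gene called lower, P2ry10b and Gpr34 do not. The median log2 fold change of the 9 was -0.85 over all libraries, with 7 of 9 below 0, beside 0.00069 over all tested genes. That median is the value of Gpr34, which changed sign between the replicate pairs. It was -1.73 in replicates 1 and 2, against 0.85 in replicates 3 and 4 (interaction adjusted p = 0.000469). P2ry12 changed sign too (-0.42 and 0.33), and the rest of the 9 did not. P2ry1, a receptor for ADP, read 6.73, 7.69, 5.28 and 5.89 CPM in BMDC and 16.4, 18.6, 14.9 and 11.4 CPM in BMDC-fer. All BMDC-fer libraries were above all controls, and P2ry1 rose by 1.26 on the log2 scale (SE 0.19, adjusted p = 0.00741), by 1.28 in replicates 1 and 2, against 1.23 in replicates 3 and 4. It was called in all 16 alternatives. P2ry10, a receptor for lysophosphatidylserine despite its name, read 32.95, 18.1, 17.4 and 15.2 CPM in BMDC and 6.54, 2.52, 1.08 and 0.707 CPM in BMDC-fer. It fell by 2.94 on the log2 scale (SE 0.66, adjusted p = 0.0257), with a log2 fold change of -2.48 in replicates 1 and 2, against -4.18 in the other pair (interaction adjusted p = 0.0629), and the call was lost without BMDC-fer replicate 2, 3 or 4, with an adjusted p of at most 0.0721.

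Of 31 other genes listed as enzymes, channels and transporters of extracellular nucleotides 21 were tested, with 1 called higher and 1 lower. Not every gene of this list acts on extracellular nucleotides, as the descriptions of the called Slc29a3 and Dpp4 below show. The median log2 fold change was 0.24, with 11 above and 10 below 0. Slc29a3, a nucleoside transporter of lysosomes and mitochondria, read 62.95, 69.6, 49.3 and 49.3 CPM in BMDC and 88.1, 96.96, 107 and 113 CPM in BMDC-fer. It rose by 0.81 on the log2 scale (SE 0.15, adjusted p = 0.0121), without overlap between the groups. Within replicates 1 and 2 its log2 fold change was 0.48, under the fold threshold, against 1.16 within replicates 3 and 4 (interaction adjusted p = 0.00234). Dpp4, a cell surface peptidase known in humans as a binding partner of adenosine deaminase, read 93.6, 58.9, 31.4 and 27.8 CPM in BMDC and 13.8, 6.66, 2.11 and 2.04 CPM in BMDC-fer. It fell by 3.10 (log2, SE 0.70, adjusted p = 0.0259), with -2.89 in replicates 1 and 2, against -3.83 in the other pair (interaction adjusted p = 0.146), and was not called without BMDC-fer replicate 2, 3 or 4, with an adjusted p of at most 0.0699. The highest tested gene of the list, the nucleoside transporter Slc29a2, had means of 2.52 ± 0.825 and 4.56 ± 0.552 CPM and was not called (log2 fold change 0.85, adjusted p = 0.0684), although it was with the replicate block (adjusted p = 0.0369), and its log2 fold change was 0.61 in replicates 1 and 2, against 1.2 in replicates 3 and 4 (interaction adjusted p = 0.124).

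Of 10 inflammasome genes downstream of P2rx7, all tested, 0 were called higher and 1 lower by edgeR, and DESeq2 called 0 higher and 1 lower. At an unadjusted p under 0.05 (edgeR) there were 3, a count without the share of all tested genes beside it. The median log2 fold change of the 10 inflammasome genes was -0.000056. Nlrp3, the sensor that P2rx7 activity engages, read 162, 137, 309 and 292 CPM in BMDC and 106, 104.7, 79.8 and 70.8 CPM in BMDC-fer. It fell by 1.32 on the log2 scale (SE 0.28, adjusted p = 0.0235), in the opposite direction to P2rx7, by 0.51 in replicates 1 and 2, against 2.00 in replicates 3 and 4. The call was lost with the replicate block (adjusted p = 0.0520) and without BMDC 3 or 4 or BMDC-fer 2, 3 or 4, with an adjusted p of at most 0.0749 over 16 alternatives. Casp1, the protease of the inflammasome, had means of 63.1 ± 5.13 and 89.0 ± 4.08 CPM (log2 fold change 0.50, adjusted p = 0.0146) and was under the fold threshold over all libraries. Within replicates 1 and 2 it was called higher (log2 fold change 0.61), against 0.39 in replicates 3 and 4 (interaction adjusted p = 0.172).

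Of 12 cAMP-responsive genes, which adenosine receptors can induce, 11 were tested, 0 were called higher and 2 lower by edgeR, and DESeq2 called 0 higher and 6 lower. At an unadjusted p under 0.05 (edgeR) there were 7, again a count without the share of all tested genes beside it. The median log2 fold change was -1.19 over all libraries, with 10 of 11 below 0. Within replicates 1 and 2 Vegfa (0.70), Thbs1 (0.42), Dusp1 (0.39), Pde4d (0.0093) and Per1 (0.00029) were above 0, and the others below. In replicates 3 and 4 only Crem (0.41) and Thbs1 (0.010) were above 0. Replicates 1 and 2 gave 3 calls (Crem, Nr4a3 and Pde4b) and replicates 3 and 4 gave 9. Of all tested genes 22.3% and 33% were called there. Pde4b, a phosphodiesterase that degrades cAMP, read 26.6, 23.5, 152 and 119.5 CPM in BMDC and 17.0, 15.4, 8.05 and 9.79 CPM in BMDC-fer. It fell by 2.68 on the log2 scale (SE 0.64, adjusted p = 0.0312), by 0.63 in replicates 1 and 2, against 3.93 in replicates 3 and 4, and the call was lost with the replicate block (adjusted p = 0.0971). It was also lost without BMDC 3 or 4 or any BMDC-fer library, with an adjusted p of 1.80e-06 to 0.0971 over 16 alternatives. Sik1, a kinase induced by cAMP, read 12.1, 13.1, 27.2 and 18.2 CPM in BMDC and 9.07, 7.78, 7.50 and 7.38 CPM in BMDC-fer. It fell by 1.15 (log2, SE 0.26, adjusted p = 0.0257). Within replicates 1 and 2 its log2 fold change was -0.58, under the fold threshold, against -1.61 within replicates 3 and 4 (interaction adjusted p = 0.0133). It was not called without BMDC replicate 4 or BMDC-fer replicate 2, 3 or 4, with an adjusted p of at most 0.0791. The highest and lowest of the list, Thbs1 (log2 fold change 0.11, adjusted p = 0.908) and Nr4a2 (log2 fold change -2.82, adjusted p = 0.0576), were not called.

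**Figure D5:**
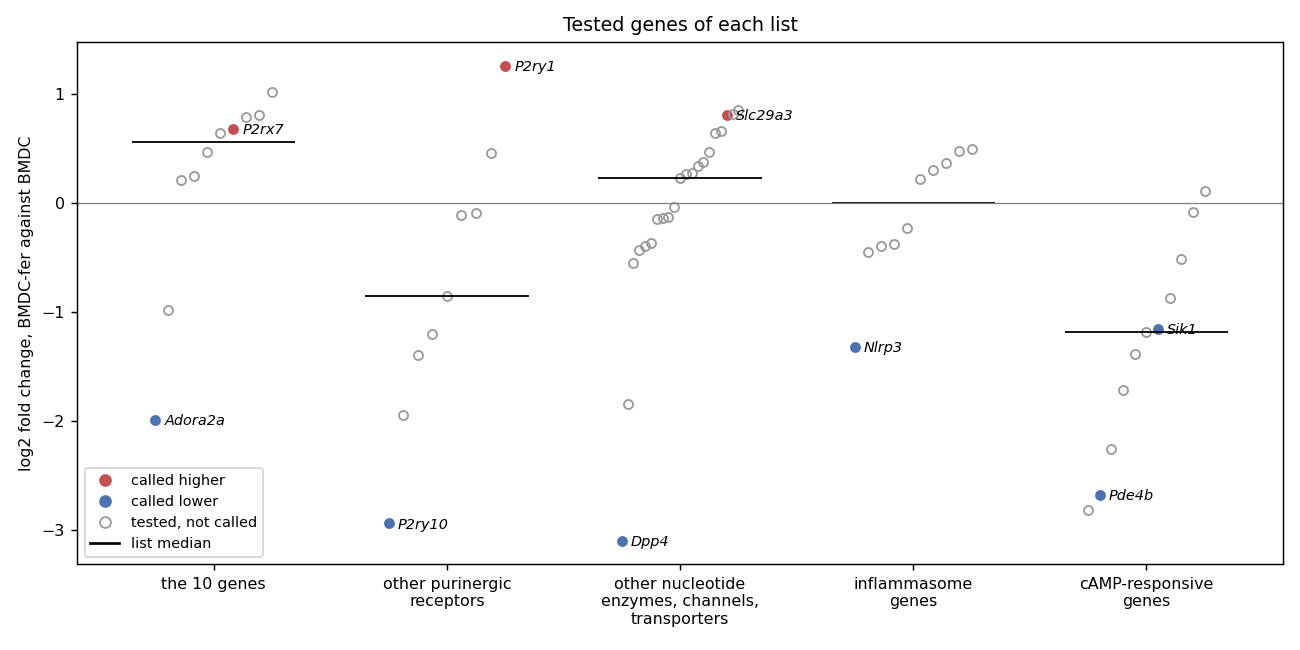
Log2 fold change between BMDC-fer and BMDC (vertical axis) of every tested gene of the 10 genes and the 4 further lists (horizontal axis), sorted within each. Filled points were called, with their symbols. Lines are list medians over all libraries, which pool unlike replicate pairs and are 0.56 for the 10 genes, -0.85 for the other receptors and -1.19 for the cAMP-responsive genes.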

How the data were processed

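Gene counts per library of mouse mRNA were deposited by the authors, who mapped the filtered reads with HISAT2 and counted them per gene with featureCounts. The build is mm10 per the submitters' processing notes, and the annotation release, the strand setting and the treatment of multi-mapping reads are not given in the sources used here. Identifiers were matched to GENCODE M21 (GRCm38), where 55227 of 55487 had a symbol. The fits were made with edgeR 4.0.16 in R 4.3.3 (TMM, filterByExpr with a count minimum of 10, quasi-likelihood test, Benjamini-Hochberg). DESeq2 1.42.0 was an alternative, beside RLE size factors, other filters, each library left out, a replicate block and a covariate for the replicate pairs. Single genes were also compared by an exact permutation test of log2(CPM + 0.05). RPKM used the union of exons.

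Groups and replicate numbers came from the sample titles. Deviations from the group means correlated between same-numbered libraries with r of 0.446, 0.355, 0.313 and 0.343. The fit with a replicate block treats the numbers as pairing the samples, while the main fit uses the group only. The mean r was 0.299 between unlike numbers within a pair (1 and 2, or 3 and 4) and -0.331 across the pairs, and 2 of 4 replicates correlated best with their own number. Pairing by number is thus not established apart from the split between replicates 1 and 2 and replicates 3 and 4. Of each further list, named genes were the called ones with a mean count of at least 100, at most 4, and the highest and lowest tested, as well as the genes that overlap a member and the 3 most like the called member of smallest p. The 10 genes were proposed, and the further lists chosen, with earlier results of these data known, though no threshold on a value defined them. Fits were tested on simulated data. No 2 replicates of a group agreed within sampling noise.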

Additional observations from a re-analysis of the deposited data

Results flagged for a closer look

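In P2ry14 the BMDC replicate 2 library (134 CPM, beside 125 to 126 CPM in the other 3) lay apart from its group, with a gap to the nearest library of 0.869 of the group's range, above Dixon's 95% critical value for 4 samples. It was the only such library in 20 groups tested (10 genes in 2 groups), and chance alone marks about 5% of groups.

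The effect of BMDC-fer against BMDC was not alike in replicates 1 and 2 and in replicates 3 and 4 for 7 of the 10 genes, by the interaction test of edgeR's quasi-likelihood fit with Benjamini-Hochberg adjustment, which 37.8% of all tested genes passed. The effect was higher in replicates 3 and 4 for P2ry6 (adjusted p = 6.57e-05), P2ry13 (adjusted p = 0.00136), Adora2b (adjusted p = 0.00207) and Entpd1 (adjusted p = 0.0103). It was higher in replicates 1 and 2 for P2ry2 (adjusted p = 0.00519) and P2rx4 (adjusted p = 0.0197). Adora2a fell in both pairs and by more in replicates 3 and 4 (adjusted p = 0.00378).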

How the results depend on the processing

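Over the 16 alternatives, the fall of Adora2a was called in each and P2ry14 stayed under the fold threshold in each. The estimates changed sign within a replicate pair for P2rx4 (-0.0071 in replicates 3 and 4) and Entpd1 (-0.083 in replicates 1 and 2), and for none of the other 8 genes. The count of the 10 genes called was 2, and it was 7 with a covariate for the replicate pair, 4 within replicates 1 and 2, 6 within replicates 3 and 4, and 1 to 2 when a library was left out, P2rx7 being the one lost. Over all tested genes 1445 were called, beside 2815 with the pair covariate, 2415 with DESeq2, 3435 and 5092 within the pairs, and 565 (without BMDC-fer replicate 4) to 1440 when a library was left out, with 797 to 879 without BMDC 3 or 4 or BMDC-fer 2 or 3. With the replicate block 3 of the 10 genes were called, Nt5e being added, and 4 of the other enzymes, channels and transporters, while 0 inflammasome genes were, with 4 at an unadjusted p under 0.05. The block changed no other call among the 10 genes. For the other receptors the count of 2 became 4 with the pair covariate, 5 with DESeq2, 6 and 5 within the pairs, and 1 (without BMDC-fer 3 or 4) to 3 when a library was left out. For the other enzymes, channels and transporters the count of 2 became 6 with the pair covariate, 5 with DESeq2, 8 and 10 within the pairs, and 1 (without BMDC-fer 3 or 4) to 2 when a library was left out. For the inflammasome genes the count of 1 became 3 in each pair, with no gene in common. These were Casp1, Kcnk6 and Pycard in replicates 1 and 2, and Casp4, Il18 and Nlrp3 in replicates 3 and 4. The count was 0 to 1 when a library was left out (0 without BMDC 3 or 4 or BMDC-fer 2, 3 or 4, with 2 to 3 at an unadjusted p under 0.05). For the cAMP-responsive genes the count of 2 became 5 with the pair covariate, 6 with DESeq2, 9 within replicates 3 and 4, and 0 to 5 when a library was left out (0 without BMDC 4 or BMDC-fer 2, 3 or 4, with 5 to 6 at an unadjusted p under 0.05, 1 without BMDC 3, 4 without BMDC 2 and 5 without BMDC 1). The counts at an unadjusted p have no share of all tested genes beside them. The causes were not tested. With 4 libraries per group, a single gene's exact permutation p cannot go below 0.0286.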
